A study of Homo sapiens with 12 samples.

Results

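The 31 genes described here are regulators and well-known transcriptional targets of p53, taken by symbol from the 61510 genes of the deposited table. They are a chosen set that leaves aside p53 targets of the cell cycle, BCL2 (except BAX) and death receptor (except TNFRSF10C) families. The set holds 5 genes that act back on p53 (MDM2, MDM4, PPM1D, FBXO22, CCNG1), 8 genes of growth arrest and stress signalling (GADD45A, GADD45B, BTG1, BTG2, PLK2, PLK3, CCNG2, ZMAT3) and 9 genes of cell death and survival (BAX, AEN, PERP, CYFIP2, TNFRSF10C, TRIAP1, PHLDA3, TP53I3, RPS27L). It is completed by 4 genes of DNA repair and nucleotide supply (XPC, DDB2, POLH, RRM2B) and 5 genes of metabolism, mitochondria and autophagy (TIGAR, FDXR, DRAM1, TP53INP1, SPATA18). The gene that encodes p53 itself was not analysed here. Of the 31 genes, 30 had enough reads to be tested, among 15653 tested genes in all. The exception was TNFRSF10C, a decoy receptor for the death ligand TRAIL, which had, summed over 3 libraries, 3 reads with DMSO and 9 with GNA in the shNC line and 2 and 12 in the shNRF2 line.

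RNA of A549/DDP cells, a cisplatin-resistant form of the A549 human lung adenocarcinoma line, was sequenced in bulk in 12 libraries, 3 for each of 4 groups. One line carried a control hairpin (shNC) and the other a hairpin against NRF2 (shNRF2), the transcription factor of the antioxidant response that NFE2L2 encodes. At 70% confluence each line received either the solvent DMSO or 4 µM gambogenic acid (GNA), a xanthone from gamboge resin, and was harvested at 24 h. Both lines, the controls included, were grown in medium with 1 µg/ml cisplatin (DDP), itself a DNA-damaging drug. Every group, shNC or shNRF2 and DMSO or GNA, was thus under cisplatin selection. The labels do not say whether a line was a clone or a pool, and with 1 line per hairpin the effect of the hairpin and other differences between the lines cannot be told apart. Nor is it stated that replicate libraries are independent cultures, and a p-value here therefore reflects only how these libraries scatter, possibly for technical reasons.

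In cells with working p53, DNA damage and other stresses stabilise the protein, which then binds paired half-sites in DNA and raises transcription of genes for growth arrest, repair and death. MDM2 and MDM4 restrain p53 and MDM2 is itself a target, which closes a feedback loop. The parental A549 line is known to carry wild-type p53, and several of the targets, such as GADD45A, are also raised by stress pathways that do not need p53.

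Library totals ran from 12848607 to 17192671 reads, and 23429 to 25086 genes had at least 1 read. Levels are given as CPM (counts scaled to library size) after TMM scaling, which sets libraries to a common composition, and tests are edgeR's quasi-likelihood tests with Benjamini-Hochberg adjustment over all 15653 genes, called at an adjusted p under 0.05. A log2 value is the fold change or difference with its standard error. NFE2L2, the target of the hairpin, stood at 77.9 ± 3.60 CPM (SD, n = 3) in shNC DMSO and 50.2 ± 2.80 in shNRF2 DMSO, a log2 difference of -0.64 ± 0.064 (adjusted p = 1.2e-08). Under GNA that difference was -0.93 ± 0.064 (adjusted p = 9.0e-12). Epithelial markers summed to 10528 to 17839 CPM in every library, with 2 of the 8 under 1 CPM. All 5 endothelial, 5 of 7 fibroblast and 6 of 7 leukocyte markers were under 1 CPM. None of these markers was at 0 in all libraries. The epithelial sum was lower under GNA, at 11213 to 11512 CPM in shNC and 10528 to 11120 in shNRF2. In DMSO it was 16813 to 17839 and 16492 to 16950 CPM, and the part of this sum in the results below was not tested. The single markers did not all follow the sum. Of the 6 tested, 3 rose and 2 fell with GNA in shNC, beside 14.6% and 16.1% of all tested genes. In shNRF2 1 rose and 2 fell, beside 16.7% and 17%, and the median log2 fold changes were 0.19 and 0.041. The leukocyte sum was 2.74 to 3.56 CPM in shNC GNA and 2.49 to 3.10 in shNRF2 GNA, and mitochondrial mRNA took 4.71% to 5.98% of reads in shNC DMSO and 4.46% to 4.83% in shNC GNA. The values of the shNRF2 DMSO libraries, and the mitochondrial share under GNA, stand beside the comparisons below. Replicate 1 of shNC DMSO stood apart from the other 2 libraries of its group (chi-square per degree of freedom over genes of 7.68 and 6.05, against 3.63 between those 2). Without it 7 of the 30 genes rose and 5 fell with GNA in shNC, and 3 were higher and 13 lower in shNRF2 in DMSO, beside the 6 and 5 and the 4 and 12 described below. By the same measure, replicate 1 of shNC GNA lay at 4.02 and 5.13 from the other libraries of its group, against 2.76 between those. Replicate 3 of shNRF2 DMSO lay at 5.09 and 3.45, against 2.78.

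**Figure D1:**
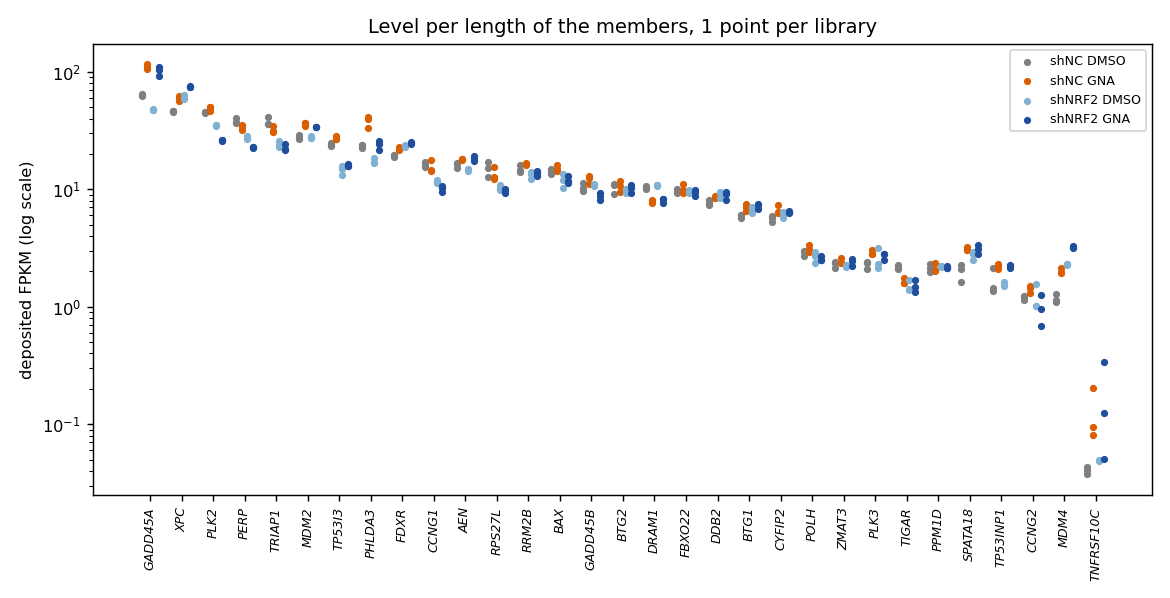
Deposited FPKM (vertical, log scale) of the 31 genes (horizontal, ordered by their mean in shNC DMSO), 1 point per library, coloured by group; 1 TNFRSF10C library at 0 is not drawn. GADD45A, XPC, PLK2, PERP and TRIAP1 led in shNC DMSO, MDM4 and TNFRSF10C came last, and GADD45A ended above every other member under GNA.

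Levels can be compared between genes only per length, in the deposited FPKM (fragments per kilobase, scaled to library size). The order depends on the fixed length used for each gene, which was not checked against the transcripts present. In shNC DMSO the order ran from GADD45A at 63.5 ± 0.82 FPKM (SD, n = 3) through XPC (46.1 ± 0.86), PLK2 (45.1 ± 0.54), PERP (38 ± 1.82), TRIAP1 (37.6 ± 2.93) and MDM2 (27.7 ± 0.89) down to CCNG2 (1.19 ± 0.056) and MDM4 (1.17 ± 0.095). PERP and TRIAP1 did not differ beyond their spread, nor did CCNG2 and MDM4. The 2 MDM genes thus stood far apart, with MDM2 among the most abundant of the 31 and MDM4 at the bottom of those tested. In shNRF2 DMSO, GADD45A at 47.7 ± 0.59 FPKM lay below XPC at 60.7 ± 2.42. In all 12 libraries the 31 genes together took 0.189% to 0.240% of the reads.

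Promoters of 25 of the 31 genes were found among the RefSeq promoter windows of GRCh38.p14, which run from 250 bases before to 50 after a transcription start, in 33 windows; FBXO22, GADD45A, PHLDA3, RRM2B, TNFRSF10C and TP53INP1 were not matched. A p53 element, here 2 half-sites of 10 bases separated by at most 13 bases with at most 3 mismatches to the consensus in all and none in the core C and G, was present in 9 of 33 windows (27.3%), against 12.8% of all 35116 windows. These 9 windows belong to 8 genes: AEN, DDB2, FDXR, GADD45B, MDM2, PLK2, RPS27L and ZMAT3. Overlapping windows of MDM2 hold the same p53 element, and they also count separately among the NRF2-type windows below. TGATGNAA, the ATF and C/EBP composite, was found on either strand in 1 window, that of PLK3 (3.03%, against 3.62% of all windows). TGACNNNGC, the core of the NRF2-type antioxidant element, was found in 6 windows, of BAX, MDM2, POLH, TP53I3 and XPC (18.2%, against 13.3%). The stretches of 6 genes are printed, those with a match that were called in at least 1 comparison below, which leaves out DDB2 and ZMAT3; they are written 5′ to 3′ on the gene's strand, with the half-sites in capitals. They lie at chr12:68808903-68808962, plus strand (MDM2), chr15:88621286-88621339, plus strand (AEN), chr17:74872995-74873045, minus strand (FDXR), chr5:58460176-58460238, minus strand (PLK2), chr19:2475995-2476059, plus strand (GADD45B) and chr15:63157507-63157566, minus strand (RPS27L).
MDM2: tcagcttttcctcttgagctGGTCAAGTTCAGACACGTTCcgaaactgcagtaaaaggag
AEN: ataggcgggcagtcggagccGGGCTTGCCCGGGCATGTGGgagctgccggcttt
FDXR: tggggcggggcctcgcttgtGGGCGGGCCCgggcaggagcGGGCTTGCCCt
PLK2: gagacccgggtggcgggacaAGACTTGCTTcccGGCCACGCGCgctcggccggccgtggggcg
GADD45B: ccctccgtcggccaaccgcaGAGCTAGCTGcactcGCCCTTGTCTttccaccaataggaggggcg
RPS27L: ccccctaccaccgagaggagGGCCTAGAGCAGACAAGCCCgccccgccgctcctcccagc
MDM2, AEN and FDXR had 2 mismatches and PLK2, GADD45B and RPS27L had 3. The only match with 0 mismatches was that of DDB2, which is not printed, and ZMAT3 had 3. Neither DDB2 nor ZMAT3 was called in any comparison with all libraries and TMM scaling. The half-sites abut in MDM2, AEN and RPS27L and are 3, 5 and 10 bases apart in PLK2, GADD45B and FDXR. A match is a string of letters and says nothing of binding. Of the 8 genes with a match, 1 rose (MDM2) and 1 fell (RPS27L) with GNA in shNC cells, where 14.6% of all tested genes rose and 16.1% fell. With GNA in shNRF2 cells 2 rose (AEN, MDM2) and 2 fell (GADD45B, PLK2), beside 16.7% and 17% of all. Between the lines 1 was higher in shNRF2 (FDXR) and 3 were lower (AEN, PLK2, RPS27L) in DMSO, beside 16.8% and 18.3% of all. Under GNA 1 was higher (FDXR) and 3 were lower (GADD45B, PLK2, RPS27L), beside 12.8% and 13.3%.

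With GNA in the shNC line, 6 of the 30 tested genes rose and 5 fell, and the rest did not pass the test. GADD45A, MDM4, PHLDA3 and SPATA18 rose most, MDM2 and XPC rose by less, and TIGAR, DRAM1, TRIAP1, PERP and RPS27L fell. The 6 that rose were 20% of the 30, beside 14.6% of all tested genes, and the 5 that fell were 16.7%, beside 16.1%. The median log2 fold change of the 30 genes was 0.049, beside 0.017 over all tested genes. In 12 of the 30 the GNA and DMSO libraries did not overlap, which held for 40.7% of all tested genes. With library totals in place of TMM scaling the all-gene median shifted by 0.10, and 13 of the 30 rose (AEN, BTG1, CYFIP2, FDXR, PLK2, TP53I3 and TP53INP1 added) and 4 fell, with 3543 genes higher and 1542 lower over the whole table in place of 2284 and 2526. In bulk RNA a change in the number of cells that express a gene and a change in RNA per cell cannot be told apart.

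With GNA in the shNRF2 line, 7 of the 30 rose and 5 fell, where 33.7% of all tested genes were called. GADD45A rose 2.03-fold, TP53INP1, MDM4, PHLDA3, AEN, MDM2 and XPC rose by less, and PLK2, DRAM1, GADD45B, PERP and CCNG1 fell. The shares were 23.3% higher, beside 16.7% of all tested genes, and 16.7% lower, beside 17% of all. The median was -0.00095 for the 30 genes and 0.0098 over all tested genes, and the libraries of 14 of the 30 did not overlap, beside 44.9% of all genes. With library totals 7 rose and 4 fell, with 3356 genes higher and 2091 lower in the whole table against 2617 and 2657 under TMM. The 2 lines share no library, but all 4 groups were fitted together with a common estimate of the spread. Called in both lines were the rises of GADD45A, MDM2, MDM4, PHLDA3 and XPC and the falls of DRAM1 and PERP. How many of all tested genes were called in both lines, or in neither, was not counted. Whether such agreement is particular to these genes is therefore not known. Under TMM scaling no member was called higher in one line and lower in the other, and 14 were called in neither. Other settings gave such opposite calls for PLK2 and GADD45B, which fell in shNRF2 in all 22 alternatives. PLK2 was called higher in shNC with library totals (log2 0.12, adjusted p = 0.049) and in both FPKM fits, and GADD45B in both FPKM fits (log2 0.20 and 0.22). Mitochondrial mRNA took at most 4.23% of reads in each shNRF2 GNA library and 5.44% to 6.21% in shNRF2 DMSO, and the summed leukocyte markers came to 2.49 to 3.10 CPM and 1.46 to 1.53 CPM. Neither pair of ranges overlapped, and their part in these results was not tested. Only 1 of the 7 leukocyte markers had enough reads to be tested, and it was called higher, with a log2 fold change of 1.30.

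**Figure D2:**
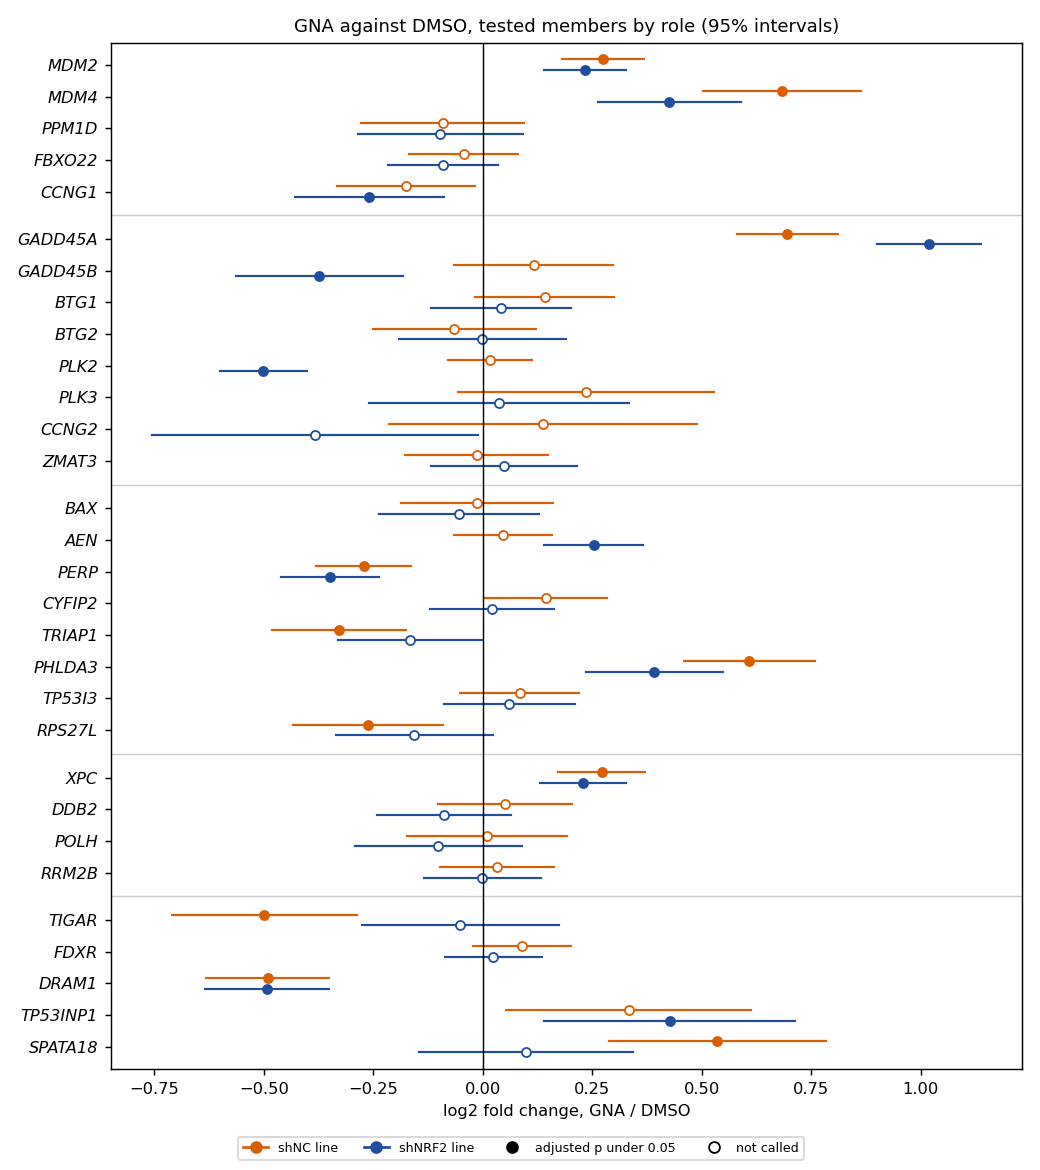
Log2 fold change of GNA against DMSO (horizontal; points with 95% intervals) for the 30 tested genes in rows by role, in the shNC line (orange) and the shNRF2 line (blue); filled points passed the test. GADD45A lies farthest right in both lines (0.70 and 1.02), DRAM1 lies at -0.49 in both, and PLK2 lies at 0.02 in shNC and -0.50 in shNRF2.

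The shNRF2 line differed from the shNC line in 16 of the 30 genes in DMSO, with 12 lower and 4 higher. TP53I3, TRIAP1, RPS27L, TIGAR, CCNG1 and PERP were lower by the most, followed by PHLDA3, GADD45A, PLK2, BAX, RRM2B and AEN, while MDM4, SPATA18, XPC and FDXR were higher. The 12 lower genes were 40% of the 30, beside 18.3% of all tested genes, and the 4 higher were 13.3%, beside 16.8%. The median log2 difference was -0.11, beside 0.011 over all genes. Libraries of the 2 lines did not overlap for 16 of the 30, beside 43.2% of all genes. With library totals 11 were lower and 5 higher, with 3226 genes higher and 2266 lower over the table against 2636 and 2872. The summed leukocyte markers stood at 1.46 to 1.53 CPM in shNRF2 DMSO and 3.31 to 4.09 CPM in shNC DMSO. Only 1 of the 7 had enough reads to be tested, and it was called lower, with a log2 difference of -1.97. The part of these markers in the results was not tested.

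Under GNA the lines differed in 15 of the 30 genes, with 12 lower and 3 higher in shNRF2. PLK2 and TP53I3 were lower by the most, then PHLDA3, CCNG1, PERP, CCNG2, TRIAP1, GADD45B, RPS27L, BAX, POLH and RRM2B, and MDM4, XPC and FDXR were higher. Lower genes made up 40% of the 30, beside 13.3% of all tested genes, and higher genes 10%, beside 12.8%. The median was -0.11, beside 0.013 over all genes, and 17 of the 30 had libraries that did not overlap, beside 40.9%. The DMSO and GNA comparisons of the lines share no library. Called in both were 9 lower genes (BAX, CCNG1, PERP, PHLDA3, PLK2, RPS27L, RRM2B, TP53I3 and TRIAP1) and 3 higher genes (FDXR, MDM4 and XPC). The share of all tested genes called in both was not counted, so whether this repeat is particular to these genes is not known. The mitochondrial share of 4.46% to 4.83% in shNC GNA also lay above that of the shNRF2 GNA libraries (at most 4.23%), and its part in these results was not tested.

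**Figure D3:**
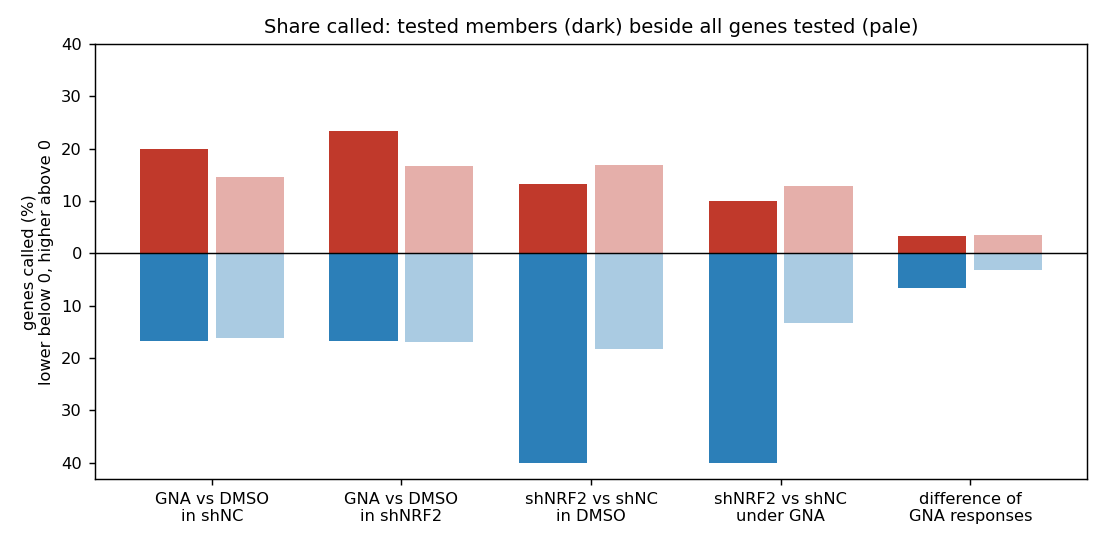
Share of genes called higher (up) and lower (down), in percent, for the 30 tested members (dark) and all 15653 tested genes (pale) in each of the 5 comparisons. The lower share of members between the lines (40% with DMSO and with GNA) stands above that of all genes (18.3% and 13.3%), while the bars of the GNA comparisons differ less (20% and 23.3% higher, beside 14.6% and 16.7%).

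The genes that act back on p53 divided, with MDM4 and MDM2 higher under GNA and the others not. MDM2 was read at 248, 241 and 236 CPM in the shNC DMSO libraries, 298, 280.5 and 299 in shNC GNA, 230.5, 229 and 238 in shNRF2 DMSO and 273, 275 and 272 in shNRF2 GNA. MDM2 (chr12:68808172-68850686) is the ubiquitin ligase that marks p53 for degradation. In each line all GNA libraries lay above all DMSO libraries, by log2 0.27 ± 0.045 (adjusted p = 3.2e-05) in shNC and 0.23 ± 0.046 (adjusted p = 0.0002) in shNRF2, or 1.21-fold and 1.18-fold. Between the lines MDM2 did not pass the test, at log2 -0.06 ± 0.046 (adjusted p = 0.36) in DMSO, where the libraries overlapped, and -0.10 ± 0.045 (adjusted p = 0.11) under GNA, where the shNRF2 libraries lay just below. The 95% intervals ran from -0.15 to 0.04 and from -0.19 to -0.01. The gene CPM overlaps MDM2 in the annotation, and reads of overlapping genes can be shared where counting ignores strand, which the sources used here do not settle.

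MDM4 read 14.6, 12.7 and 13.1 CPM in the shNC DMSO libraries, 21.4, 20.7 and 22.8 in shNC GNA, 25.6, 25.8 and 25.1 in shNRF2 DMSO and 34.1, 35.2 and 33.5 in shNRF2 GNA. MDM4 (chr1:204516406-204558120) is a relative of MDM2 that binds and restrains p53 without degrading it. Its 4 groups formed a ladder with no overlap, with shNC DMSO lowest and shNRF2 GNA highest. GNA raised it 1.61-fold in shNC, log2 0.68 ± 0.087 (adjusted p = 7.9e-07), and 1.34-fold in shNRF2, log2 0.43 ± 0.080 (adjusted p = 0.00011). The shNRF2 line was above shNC by 1.89-fold in DMSO, log2 0.92 ± 0.087 (adjusted p = 4.0e-09), and 1.58-fold under GNA, log2 0.66 ± 0.080 (adjusted p = 3.6e-07). The smaller GNA response of the shNRF2 line, a difference of -0.26 ± 0.12, did not pass the test (adjusted p = 0.22).

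CCNG1 encodes cyclin G1, which brings a phosphatase to MDM2. CCNG1 stood at 49.8, 55.8 and 52.7 CPM in the shNC DMSO libraries, 53.5, 44.4 and 42.8 in shNC GNA, 35.6, 36.3 and 37.3 in shNRF2 DMSO and 28.6, 30.8 and 31.7 in shNRF2 GNA. Every shNRF2 library lay below every shNC library, at 69% of the shNC level in DMSO, log2 -0.54 ± 0.079 (adjusted p = 5.5e-06), and 65% under GNA, log2 -0.62 ± 0.080 (adjusted p = 1.1e-06). With GNA it fell in shNRF2, log2 -0.26 ± 0.083 (adjusted p = 0.016), a call lost with library totals, with both FPKM fits and without either of 2 libraries (adjusted p of 0.054 to 0.082). In shNC the value was -0.17 ± 0.077 (adjusted p = 0.087), and the libraries overlapped; without replicate 1 of shNC GNA it was -0.28 and called (adjusted p = 0.0069). PPM1D, the phosphatase WIP1 that removes activating phosphates from p53, and FBXO22, part of a ubiquitin ligase that acts on methylated p53, passed no test, with group means of 19.7 to 21.1 and 107 to 119 CPM.

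Among the genes of growth arrest and stress signalling, GADD45A rose with GNA in both lines, and PLK2 and GADD45B fell in shNRF2 and were not called in shNC, with the difference between the lines called for all 3. GADD45A, which binds PCNA and stress kinase activators, lies at chr1:67685201-67688334. GADD45A was read at 126, 130.4 and 129 CPM in the shNC DMSO libraries, 199, 208 and 217 in shNC GNA, 94.2, 91.4 and 92.8 in shNRF2 DMSO and 192, 171 and 202 in shNRF2 GNA. With GNA it rose 1.62-fold in shNC, log2 0.70 ± 0.056 (adjusted p = 2.4e-10), and 2.03-fold in shNRF2, log2 1.02 ± 0.058 (adjusted p = 9.0e-14), without overlap in either. In DMSO the shNRF2 libraries lay below the shNC libraries, at 72.3% of their level, log2 -0.47 ± 0.058 (adjusted p = 4.2e-07). Under GNA the difference was -0.14 ± 0.055 (adjusted p = 0.057), and the shNRF2 replicate 3 reached the shNC range. That difference was called lower in 6 alternatives, DESeq2 among them, at log2 -0.20 to -0.15 (adjusted p of 0.022 to 0.048). The rise was larger in shNRF2 by 0.32 ± 0.080 (adjusted p = 0.013), a call lost in both FPKM fits and without replicate 3 of shNRF2 GNA.

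GADD45B, its paralog, lies at chr19:2476127-2478257 and did otherwise. GADD45B counted 21.7, 23 and 25.6 CPM in the shNC DMSO libraries, 23, 26.2 and 26.9 in shNC GNA, 23.8, 23.2 and 23.1 in shNRF2 DMSO and 19.2, 16.8 and 18.2 in shNRF2 GNA. The lines overlapped in DMSO, and under GNA every shNRF2 library was below every shNC library, log2 -0.49 ± 0.091 (adjusted p = 0.00015). GNA lowered it in shNRF2 to 77.2% of DMSO, log2 -0.37 ± 0.092 (adjusted p = 0.0023), and gave 0.12 ± 0.088 (adjusted p = 0.35) in shNC, where the libraries overlapped. The difference of the 2 responses was -0.49 ± 0.13 (adjusted p = 0.019), lost without replicate 2 or 3 of shNC GNA or replicate 2 of shNRF2 GNA.

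PLK2 (chr5:58453982-58460086) encodes a polo-like kinase of the stress response and centriole duplication. PLK2 was read at 219, 223 and 218 CPM in the shNC DMSO libraries, 211, 231 and 225 in shNC GNA, 166, 166 and 164 in shNRF2 DMSO and 118, 116 and 117 in shNRF2 GNA. The 2 shNC groups overlapped, the shNRF2 DMSO libraries lay below both, and the shNRF2 GNA libraries lay lowest with a spread of under 3 CPM. With GNA it fell to 70.7% of DMSO in shNRF2, log2 -0.50 ± 0.048 (adjusted p = 3.7e-09), and gave 0.02 ± 0.047 (adjusted p = 0.83) in shNC. The difference of the responses, -0.52 ± 0.067 (adjusted p = 1.1e-05), was called in all 21 alternatives. Between the lines PLK2 was at 75.2% of the shNC level in DMSO, log2 -0.41 ± 0.047 (adjusted p = 1.1e-07), and 52.5% under GNA, log2 -0.93 ± 0.048 (adjusted p = 2.4e-14), the largest difference between the lines under GNA among the 30 genes.

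PLK3, another polo-like kinase of the stress response, was scarce. PLK3 held 8.41, 7.36 and 8.18 CPM in the shNC DMSO libraries, 9.14, 9.87 and 9.15 in shNC GNA, 7.26, 10.6 and 7.82 in shNRF2 DMSO and 9.05, 9.12 and 8.06 in shNRF2 GNA. The shNC GNA libraries lay above the shNC DMSO libraries, log2 0.24 ± 0.14 (adjusted p = 0.23), without passing the test, and PLK3 was called in no comparison. CCNG2 encodes cyclin G2, a cyclin tied to cell cycle exit. CCNG2 had 9.37, 9.69 and 8.84 CPM in the shNC DMSO libraries, 10.9, 9.50 and 10.4 in shNC GNA, 11.7, 7.50 and 7.67 in shNRF2 DMSO and 6.86, 4.94 and 8.93 in shNRF2 GNA. The 3 shNRF2 GNA libraries were below the shNC GNA libraries, log2 -0.56 ± 0.18 (adjusted p = 0.018), a call lost in 5 of the 22 alternatives, both FPKM fits and without any of 3 libraries. Without replicate 2 of shNRF2 GNA it was -0.36 (adjusted p = 0.15). With GNA in shNRF2 the value was -0.38 ± 0.18 (adjusted p = 0.11), and without replicate 3 of shNRF2 GNA it was -0.62 and called (adjusted p = 0.017). Replicate 1 of shNRF2 DMSO, at 11.7 CPM, lay above every other CCNG2 library. BTG1 and BTG2 are antiproliferative partners of the mRNA deadenylation complex and ZMAT3 is an RNA-binding splicing regulator. None of the 3 passed a test with all libraries and TMM scaling, with group means of 30.3 to 33.6, 27.1 to 30.0 and 25.5 to 27.3 CPM.

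**Figure D4:**
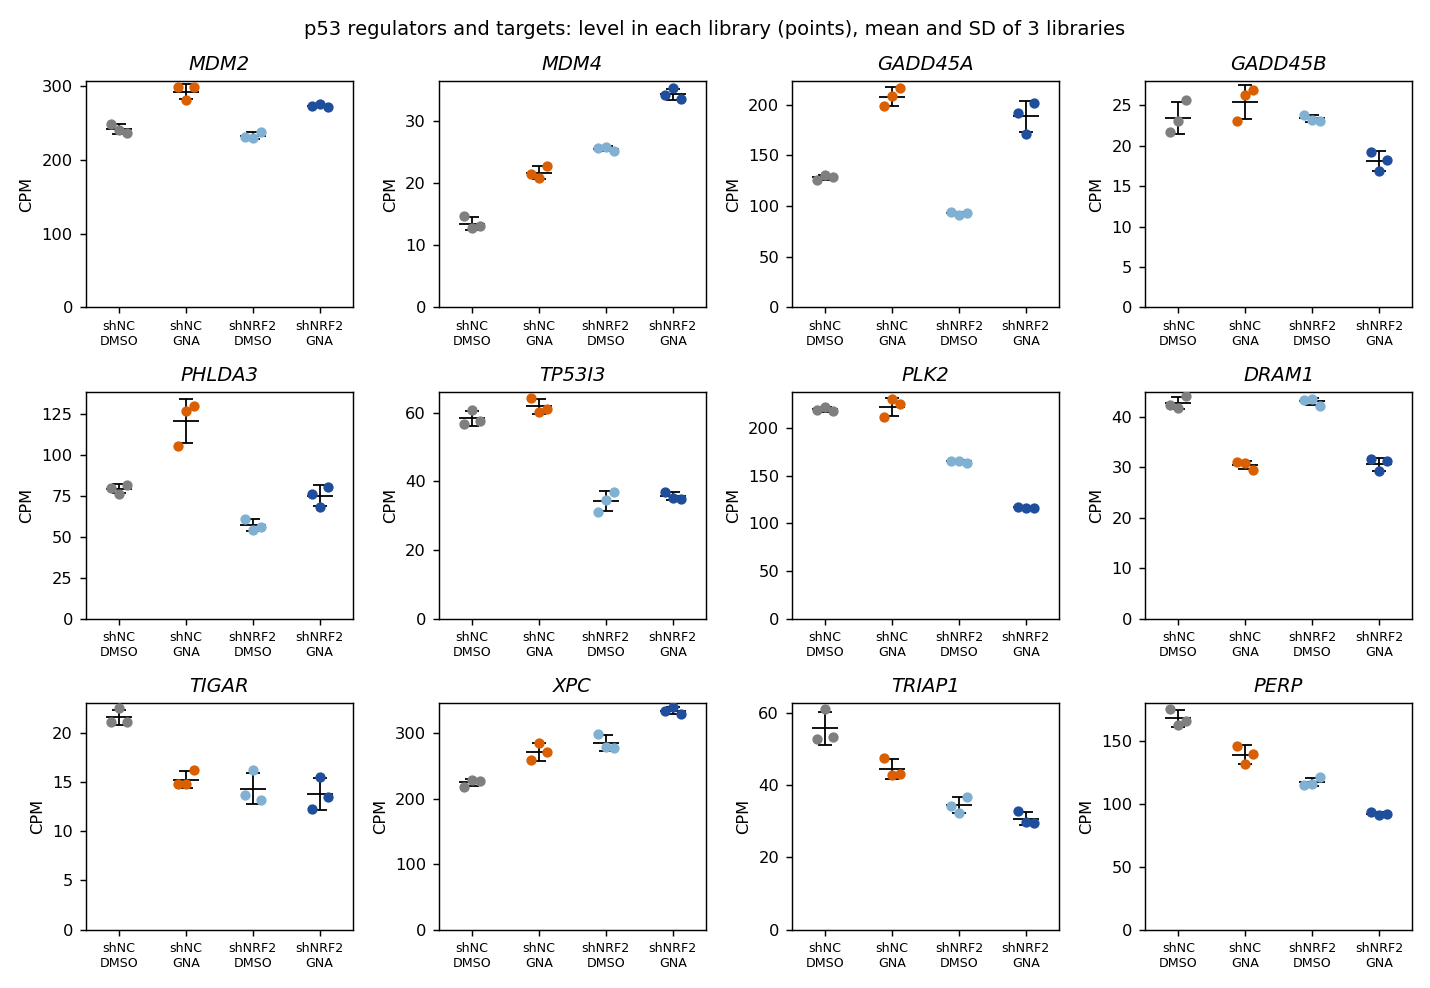
CPM after TMM scaling (vertical, from 0) in each of the 12 libraries for 12 of the genes, with points for libraries, and a bar and whiskers for the mean and SD of 3 libraries per group. MDM4 rises in 4 steps from 13.5 to 34.3 CPM, PLK2 is lowest in shNRF2 GNA (117 CPM), and DRAM1 is lower with GNA to nearly the same level in both lines (30.4 and 30.6 CPM).

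Of the 8 tested genes of cell death and survival, 7 were lower in shNRF2 in DMSO, beside 18.3% of all tested genes, and 6 under GNA, beside 13.3%. None was higher, the medians were -0.50 and -0.51, beside 0.011 and 0.013 over all genes, and with library totals 6 and 6 were lower. With GNA, 1 of the 8 rose and 3 fell in shNC, an order that library totals reversed to 4 and 2, and 2 rose and 1 fell in shNRF2. Of all tested genes 14.6% rose and 16.1% fell in shNC, and 16.7% and 17% in shNRF2. TP53I3 (chr2:24077433-24084834) encodes a quinone oxidoreductase tied to oxidative stress. TP53I3 was read at 56.6, 60.7 and 57.6 CPM in the shNC DMSO libraries, 64.3, 60.2 and 61 in shNC GNA, 31.2, 34.5 and 36.9 in shNRF2 DMSO and 36.9, 35.2 and 34.9 in shNRF2 GNA. All 6 shNRF2 libraries lay below all 6 shNC libraries, at 58.6% of the shNC level in DMSO, log2 -0.77 ± 0.070 (adjusted p = 1.9e-09), and 57.7% under GNA, log2 -0.79 ± 0.069 (adjusted p = 1.0e-09). GNA itself gave 0.08 ± 0.066 (adjusted p = 0.37) in shNC and 0.06 ± 0.073 (adjusted p = 0.56) in shNRF2.

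TRIAP1 is a small mitochondrial lipid-transfer chaperone that restrains apoptosis. TRIAP1 came to 52.9, 61 and 53.3 CPM in the shNC DMSO libraries, 47.6, 42.8 and 42.9 in shNC GNA, 34.2, 32.4 and 36.7 in shNRF2 DMSO and 33, 29.6 and 29.6 in shNRF2 GNA. The shNRF2 libraries were below the shNC libraries with DMSO and with GNA, log2 -0.70 ± 0.077 (adjusted p = 5.9e-08) in DMSO and -0.53 ± 0.078 (adjusted p = 7.5e-06) under GNA. With GNA it fell in shNC without overlap, log2 -0.33 ± 0.074 (adjusted p = 0.0012), and in shNRF2 the value was -0.17 ± 0.080 (adjusted p = 0.12).

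RPS27L, a ribosomal protein relative that binds MDM2, has a near-identical copy in RPS27, so its counts are uncertain where reads could be split between them. RPS27L gave 116, 158 and 141 CPM in the shNC DMSO libraries, 133, 109 and 105 in shNC GNA, 87.9, 91.7 and 97 in shNRF2 DMSO and 82.6, 86 and 79.5 in shNRF2 GNA. It was lower in shNRF2 with DMSO and with GNA, log2 -0.59 ± 0.085 (adjusted p = 3.8e-06) and -0.48 ± 0.086 (adjusted p = 9.4e-05). Its fall with GNA in shNC, log2 -0.26 ± 0.083 (adjusted p = 0.018), came from overlapping libraries and was lost in 8 of 22 alternatives, with DESeq2, library totals, both FPKM fits and without any of 4 libraries (adjusted p of 0.058 to 0.30).

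PHLDA3 competes with AKT for membrane lipids and so dampens survival signalling. PHLDA3 showed 80.2, 76.5 and 81.8 CPM in the shNC DMSO libraries, 106, 127 and 130.4 in shNC GNA, 61.1, 54.4 and 56 in shNRF2 DMSO and 76.5, 68.1 and 80.8 in shNRF2 GNA. GNA raised it 1.52-fold in shNC, log2 0.61 ± 0.073 (adjusted p = 2.6e-07), and 1.31-fold in shNRF2, log2 0.39 ± 0.076 (adjusted p = 0.00019), without overlap in either line. The shNRF2 line was lower in DMSO, log2 -0.47 ± 0.076 (adjusted p = 1.7e-05), and under GNA, log2 -0.69 ± 0.073 (adjusted p = 3.7e-08), and its GNA libraries overlapped the shNC DMSO libraries. The lines' responses differed by -0.22 ± 0.11 (adjusted p = 0.25), which did not pass.

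PERP, a membrane protein of desmosomes and apoptosis, fell with GNA in both lines and was lower in shNRF2 with either treatment. PERP measured 175, 162 and 165 CPM in the shNC DMSO libraries, 146, 131 and 139.5 in shNC GNA, 115, 115 and 121 in shNRF2 DMSO and 93.1, 91 and 91.7 in shNRF2 GNA. None of the 4 groups overlapped. GNA took it to 82.8% of DMSO in shNC, log2 -0.27 ± 0.052 (adjusted p = 0.00021), and 78.5% in shNRF2, log2 -0.35 ± 0.054 (adjusted p = 1.1e-05). Between the lines the difference was -0.52 ± 0.053 (adjusted p = 1.7e-08) in DMSO and -0.59 ± 0.054 (adjusted p = 2.3e-09) under GNA.

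BAX, the pore-forming death effector of mitochondria, was at 38.7 ± 1.91 CPM in shNC DMSO and 31.3 ± 4.25 in shNRF2 DMSO (SD, n = 3), log2 -0.30 ± 0.087 (adjusted p = 0.0077), a call lost without replicate 2 of shNRF2 DMSO (adjusted p = 0.087). Under GNA the 2 lines stood at 38.3 ± 2.40 and 30.2 ± 1.83 CPM, log2 -0.34 ± 0.086 (adjusted p = 0.0036), and BAX was not called with GNA in either line (log2 -0.01 ± 0.084 and -0.05 ± 0.088). AEN, a nuclease that helps to degrade DNA in dying cells, rose with GNA in shNRF2, from 88.8 ± 1.59 to 106 ± 4.26 CPM, log2 0.25 ± 0.055 (adjusted p = 0.0006). In DMSO it was lower in shNRF2, log2 -0.19 ± 0.055 (adjusted p = 0.0083), a call lost with library totals (adjusted p = 0.058). CYFIP2, part of the actin-regulating WAVE complex, passed no test with all libraries and TMM scaling, at group means of 62.4 to 68.9 CPM.

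Of the repair genes XPC alone moved with GNA by the test. XPC recognises helix-distorting DNA damage for excision repair, and stood at 225 ± 5.72 CPM with DMSO and 271 ± 13.4 with GNA in shNC (SD, n = 3), and at 285 ± 11.7 and 334 ± 4.86 in shNRF2. It rose by log2 0.27 ± 0.048 (adjusted p = 7.8e-05) in shNC and 0.23 ± 0.048 (adjusted p = 0.00043) in shNRF2, and was higher in shNRF2 by 0.34 ± 0.048 (adjusted p = 2.8e-06) in DMSO and 0.30 ± 0.048 (adjusted p = 2.4e-05) under GNA. XPC overlaps LSM3 on the other strand, and the sources used here do not say whether counting used strand, so reads of the 2 cannot be told apart with certainty. RRM2B, the p53-inducible subunit of ribonucleotide reductase, was lower in shNRF2 in DMSO, log2 -0.23 ± 0.064 (adjusted p = 0.0067), a call lost in 4 alternatives (adjusted p of 0.053 to 0.064), and under GNA, log2 -0.26 ± 0.064 (adjusted p = 0.0028). POLH, the polymerase that bypasses ultraviolet lesions and platinum adducts, was lower in shNRF2 under GNA, log2 -0.29 ± 0.091 (adjusted p = 0.019), a call lost in 5 alternatives (adjusted p of 0.062 to 0.094). DDB2, which detects ultraviolet lesions, passed no test with all libraries and TMM scaling, and in DMSO its value for the lines was 0.18 ± 0.074 (adjusted p = 0.056).

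The metabolic and autophagy genes held both rises and falls under GNA. DRAM1, a lysosomal membrane protein that promotes autophagy, lies at chr12:101877580-101923612. DRAM1 was read at 42.4, 41.7 and 44.1 CPM in the shNC DMSO libraries, 31, 30.8 and 29.4 in shNC GNA, 43.4, 43.5 and 42.2 in shNRF2 DMSO and 31.5, 29.1 and 31.1 in shNRF2 GNA. GNA libraries lay below DMSO libraries in both lines, at 71.1% of DMSO in each, log2 -0.49 ± 0.068 (adjusted p = 2.9e-06) in shNC and -0.49 ± 0.069 (adjusted p = 2.2e-06) in shNRF2. Between the lines DRAM1 was not called, with 95% intervals of -0.13 to 0.15 in DMSO and -0.14 to 0.15 under GNA, and the interval of the difference in response ran from -0.20 to 0.20.

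TIGAR, a phosphatase that lowers glycolytic flux, lies at chr12:4321213-4360028. TIGAR was 21.1, 22.5 and 21.1 CPM in the shNC DMSO libraries, 14.8, 14.7 and 16.2 in shNC GNA, 13.6, 16.2 and 13.2 in shNRF2 DMSO and 12.3, 15.5 and 13.5 in shNRF2 GNA. Only the shNC DMSO libraries stood apart, above the other 9. In shNC it fell with GNA to 70.8% of DMSO, log2 -0.50 ± 0.10 (adjusted p = 0.00044), and in DMSO it was lower in shNRF2, log2 -0.59 ± 0.10 (adjusted p = 6.5e-05). With GNA in shNRF2 the value was -0.05 ± 0.11 (adjusted p = 0.76). The difference of the responses, 0.45 ± 0.15 (adjusted p = 0.073), did not pass with all libraries and passed in 1 alternative, without replicate 2 of shNRF2 DMSO.

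SPATA18 (Mieap), a protein of mitochondrial quality control, was read at low depth. SPATA18 reached 8.48, 11.8 and 10.9 CPM in the shNC DMSO libraries, 14.9, 15.8 and 14.7 in shNC GNA, 14.8, 12.5 and 14.2 in shNRF2 DMSO and 16.1, 15.1 and 13.4 in shNRF2 GNA. It rose 1.45-fold with GNA in shNC without overlap, log2 0.54 ± 0.12 (adjusted p = 0.0011), and gave 0.10 ± 0.12 (adjusted p = 0.57) in shNRF2, with a difference of -0.44 ± 0.17 (adjusted p = 0.13). In DMSO it was higher in shNRF2, log2 0.41 ± 0.12 (adjusted p = 0.011), a call lost without replicate 1 of shNC DMSO (log2 0.27, adjusted p = 0.090) or replicate 1 of shNRF2 DMSO (adjusted p = 0.061). TP53INP1, a nuclear stress protein that also acts in autophagy, was likewise scarce. TP53INP1 amounted to 12.5, 8.10 and 8.51 CPM in the shNC DMSO libraries, 11.6, 12.2 and 12.8 in shNC GNA, 8.61, 9.26 and 8.97 in shNRF2 DMSO and 12.2, 11.7 and 12.2 in shNRF2 GNA. It rose in shNRF2 without overlap, log2 0.43 ± 0.14 (adjusted p = 0.019), a call lost without replicate 1 of shNRF2 DMSO or replicate 3 of shNRF2 GNA (adjusted p of 0.063 and 0.050). In shNC, where replicate 1 of DMSO lay within the GNA range, the value was 0.33 ± 0.14 (adjusted p = 0.064), and without that library it was 0.56 (adjusted p = 0.0014). FDXR, the reductase that feeds electrons to mitochondrial cytochromes, was higher in shNRF2 in DMSO, log2 0.22 ± 0.054 (adjusted p = 0.0021), and under GNA, log2 0.16 ± 0.054 (adjusted p = 0.032), the latter lost in 6 of 22 alternatives.

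**Figure D5:**
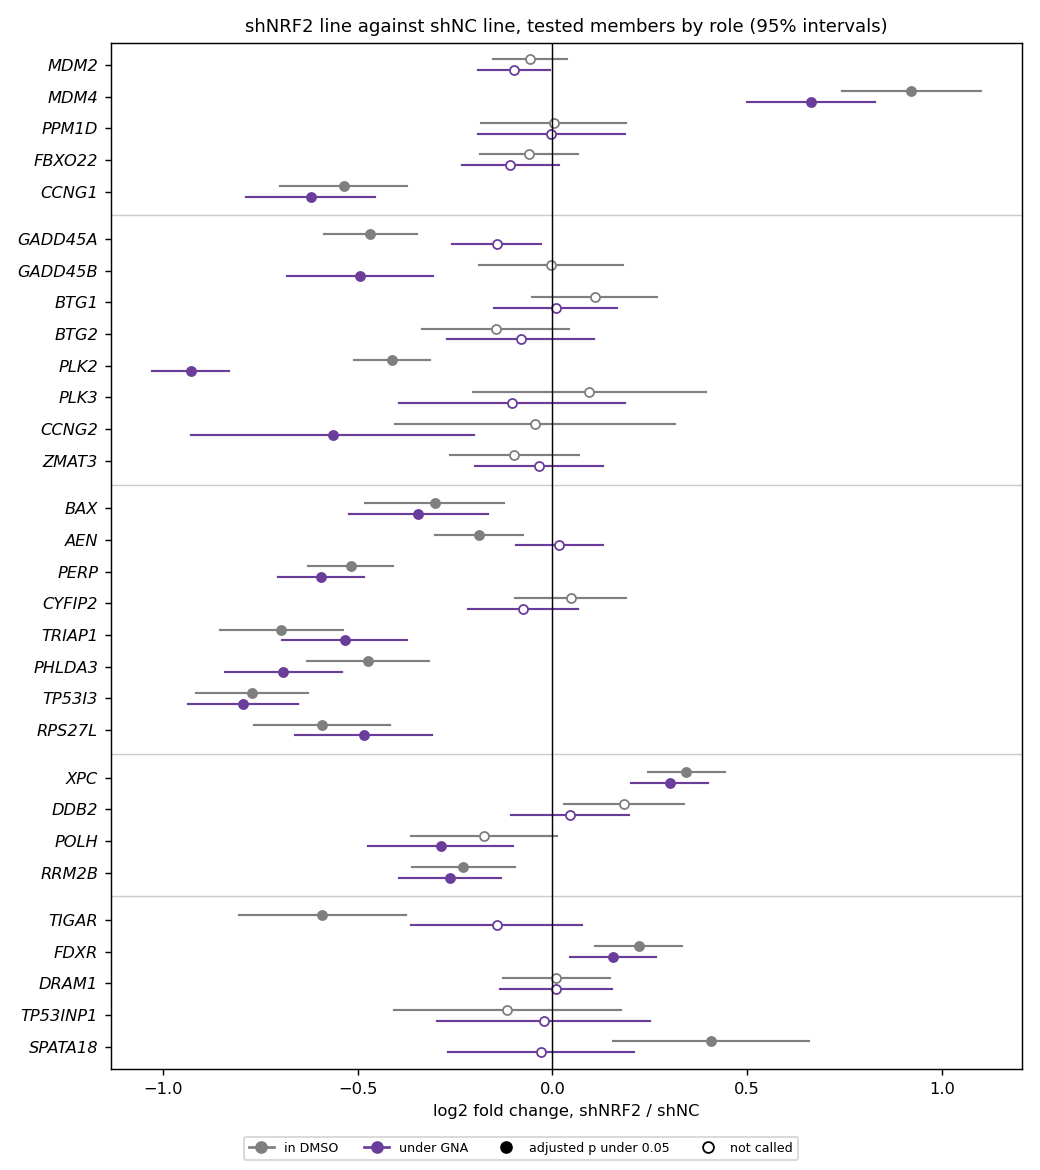
Log2 difference of shNRF2 against shNC (horizontal; points with 95% intervals) for the 30 tested genes in rows by role, in DMSO (grey) and under GNA (purple); filled points passed the test. The rows of cell death and survival lie left of 0 except AEN under GNA and CYFIP2 in DMSO, MDM4 lies farthest right (0.92 and 0.66), and PLK2 under GNA lies farthest left (-0.93).

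The difference between the lines in their response to GNA was called in 3 of the 30 genes, beside 6.82% of all tested genes. GADD45A responded more in shNRF2 (1 of 30, 3.33%, beside 3.58% of all tested genes), and GADD45B and PLK2 responded lower (2 of 30, 6.67%, beside 3.24%). All 3 are listed here under growth arrest and stress signalling, but they do not share a direction. None of the 22 tested genes of the other roles was called, beside 6.82% of all tested genes. Whether the roles differ was not tested. The median difference was -0.045, beside -0.0048 over all genes, and with library totals 1 gene was called higher and 2 lower, with 414 and 674 in the whole table in place of 561 and 507. Of the 27 genes not called, 26 had a 95% interval within a factor of 2 either way, and 23 within a factor of 1.5. Without 1 library at a time, 0 to 2 genes were called higher and 1 to 2 lower. BTG1, BTG2, CYFIP2, DDB2, FBXO22, PLK3, PPM1D and ZMAT3, 8 genes in all, were called in none of the 5 comparisons with all libraries and TMM scaling, and 4 of them were called in alternatives. BTG1, at log2 0.14 ± 0.077 (adjusted p = 0.18) with GNA in shNC, was called with library totals at 0.24 (adjusted p = 0.016) and in both FPKM fits. CYFIP2, at 0.14 ± 0.068 (adjusted p = 0.12) in the same comparison, was called with library totals at 0.25 (adjusted p = 0.0061), with upper-quartile factors and in both FPKM fits. DDB2, at 0.18 ± 0.074 (adjusted p = 0.056) for shNRF2 against shNC in DMSO, was called higher in 7 alternatives, at 0.19 to 0.24. BTG2, at -0.15 ± 0.092 (adjusted p = 0.23) in that comparison, was called lower without replicate 1 of shNC DMSO, at -0.24 (adjusted p = 0.043).

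Further p53 targets, 55 tested of 56 listed, rose more often than they fell with GNA. In shNC 20 rose (36.4%) and 5 fell (9.09%), beside 14.6% and 16.1% of all tested genes. In shNRF2 19 rose (34.5%) and 6 fell (10.9%), beside 16.7% and 17%. The medians were 0.17 and 0.11, beside 0.017 and 0.0098 over all tested genes. With library totals 30 rose and 1 fell in shNC, where 3543 of all tested genes rose and 1542 fell. In shNRF2 24 rose and 3 fell with library totals, beside 3356 and 2091 of all. SESN2, a sestrin that restrains mTORC1, rose from 21.4 to 50.5 CPM in shNC, log2 1.24 ± 0.073 (adjusted p = 7.3e-13), and from 28.7 to 59.9 in shNRF2, log2 1.06 ± 0.071 (adjusted p = 2.9e-12). ATF3, a stress transcription factor, rose by log2 0.99 ± 0.058 (adjusted p = 4.7e-13) and 1.24 ± 0.059 (adjusted p = 3.3e-15). Next in shNC came ANKRA2, log2 0.60 ± 0.10 (adjusted p = 6.0e-05), and SPHK1, a sphingosine kinase, was among the highest in shNRF2, rising from 2.94 to 6.80 CPM, log2 1.19 ± 0.20 (adjusted p = 4.0e-05). SESN2 and ATF3 are also targets of the ATF4 stress response. TNFRSF10D, SFN and CMBL fell most in shNC (-0.32 ± 0.11, -0.21 ± 0.044 and -0.20 ± 0.072), and TRIM22, ASCC3 and ARHGEF3 in shNRF2 (-0.45 ± 0.14, -0.26 ± 0.057 and -0.26 ± 0.097). CDKN1A, the p21 inhibitor of cyclin-dependent kinases, falls outside the naming rule and was chosen after its values were seen. It stood at 192 ± 14.3 CPM (SD, n = 3) in shNC DMSO and 219.6 ± 6.85 in shNC GNA, and at 174 ± 5.42 and 236 ± 6.47 in shNRF2. It rose by log2 0.19 ± 0.053 (adjusted p = 0.0059) in shNC and 0.44 ± 0.053 (adjusted p = 1.8e-07) in shNRF2, a difference of 0.25 ± 0.075 (adjusted p = 0.043).

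Between the lines the further targets were 8 higher and 16 lower in DMSO, beside 16.8% and 18.3% of all tested genes, and 10 higher and 15 lower under GNA, beside 12.8% and 13.3%. With library totals the DMSO counts were nearly even, at 11 higher and 13 lower, and those under GNA were 11 and 15. In the difference of responses 9 were higher and 2 lower in shNRF2, beside 3.58% and 3.24% of all tested genes. The higher ones included SPHK1 at 1.46 ± 0.26 (adjusted p = 0.00078), IER5 at 0.59 ± 0.080 (adjusted p = 2.5e-05) and TNFRSF10D at 0.55 ± 0.15 (adjusted p = 0.027). The lower ones were SDC1 at -0.77 ± 0.12 (adjusted p = 0.00012) and EPS8L2 at -0.32 ± 0.063 (adjusted p = 0.0023). Of 22 regulators and cofactors of p53, 1 was higher and 5 lower with GNA in shNC, beside 14.6% and 16.1% of all tested genes. In shNRF2 3 were higher and 7 lower, beside 16.7% and 17%, and the medians were -0.055 and -0.091, beside 0.017 and 0.0098 over all genes. The order of the counts reversed with library totals in shNRF2, to 5 higher and 3 lower. In shNC it did not, at 4 higher and 5 lower, but the median changed sign to 0.047. The DNA damage kinase CHEK1 fell in shNC, log2 -0.55 ± 0.079 (adjusted p = 4.4e-06), and in shNRF2, log2 -0.46 ± 0.079 (adjusted p = 4.0e-05), as did the nucleolar protein NPM1, log2 -0.46 ± 0.053 (adjusted p = 1.2e-07) and -0.30 ± 0.053 (adjusted p = 4.2e-05). DAXX fell most after these in shNC (-0.42 ± 0.052) and CHEK2, another damage kinase, in shNRF2 (-0.31 ± 0.099). HUWE1, a ubiquitin ligase, rose in both (0.20 ± 0.051 and 0.19 ± 0.051), and COP1 and TP53BP2 rose in shNRF2 (0.24 ± 0.078 and 0.20 ± 0.069). Between the lines 7 of the 22 were higher and 5 lower in DMSO, beside 16.8% and 18.3% of all tested genes, and 7 higher and 4 lower under GNA, beside 12.8% and 13.3%. In the difference of responses TP53BP2 alone was called, log2 0.32 ± 0.098 (adjusted p = 0.044), with none called under library totals.

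Of 16 cell cycle genes that p53 lowers through p21 and the DREAM repressor complex, 15 fell with GNA in shNC and all 16 in shNRF2, with medians of -0.92 and -1.25, where 16.1% and 17% of all tested genes fell. With library totals 14 and 15 fell. Between the lines 7 were higher and 1 lower in DMSO, beside 16.8% and 18.3% of all tested genes. Under GNA 1 was higher and 3 lower, beside 12.8% and 13.3%, an order that was not kept with library totals or upper-quartile factors, each at 3 and 3. A lower response in shNRF2 was called for 5 of the 16, beside 3.24% of all tested genes. Genes of this kind follow how many cells divide, and the share of dividing cells was not measured here.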

How the data were processed

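The authors deposited a table of raw read counts per gene and a table of FPKM for 12 bulk RNA-seq libraries, 3 per group. The submitters' processing notes name GRCh38 and DESeq2. The aligner, counter, annotation and use of strand were not given in the sources used here. Per gene, FPKM as deposited equal counts divided by the library total and a fixed gene length for 100% of 15069 genes checked (relative tolerance 0.001), and were used for levels per length and as an alternative.

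Counts were read in R 4.3.3. Genes were kept with edgeR 4.0.16's filterByExpr (minimum count 10, minimum total 15), which left 15653 of 61510 genes holding 99.8% of the counts. TMM-scaled counts of the 4 groups were fitted together with edgeR's quasi-likelihood model (8 residual degrees of freedom), with 5 comparisons and Benjamini-Hochberg adjustment over all genes. Alternatives were other scalings, filters and fits (DESeq2 1.42.0, limma 3.58.1 on log2 FPKM with pseudocounts of 1 and 0.1), a replicate block, separate fits per pair of groups, and fits without each library in turn. The procedure was run on simulated counts with known changes, drawn from its own fitted model. Such a run does not test whether the model suits these libraries.

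Genes described library by library were, per comparison, up to 6 called genes with the largest absolute log2 fold change and at least 5 CPM in a group compared, with MDM2 and paralogs of those chosen; from the further p53 targets and p53 regulators, up to 3 called genes each way were named in each GNA comparison and in the difference. The genes and lists were chosen with earlier results of these data known. Same-numbered libraries of different groups did not deviate together (18 pairs, r from -0.044 to 0.027), so numbers were not treated as pairs. Promoter sequences are from RefSeq, GRCh38.p14. Depth was 12848607 to 17192671 counts per library, and the number of 3 libraries per group limits the precision.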

Additional observations from a re-analysis of the deposited data

Results flagged for a closer look

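For 3 genes the response to GNA differed between the lines by the test of the difference itself (edgeR, adjusted over all 15653 genes). GADD45A rose more in shNRF2 than in shNC, by 0.324 on the log2 scale (adjusted p = 0.013). For GADD45B the difference was -0.49 (adjusted p = 0.019), with a fall in shNRF2 cells and no call in shNC cells. PLK2 gave -0.517 (adjusted p = 1.1e-05), with the same arrangement of calls.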

How the results depend on the processing

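No call of a member changed direction in any alternative. With library totals 13 members rose with GNA in shNC, and with limma on log2 FPKM 14 rose with a pseudocount of 1 and 14 with 0.1, in place of 6; both sets of values lack the TMM scaling of the libraries. In the difference of responses no member (0) was called higher with limma at either pseudocount, in place of 1. Leaving out 1 library at a time gave 0 to 2 higher (0 without shNRF2 GNA replicate 3, 2 without shNRF2 DMSO replicate 2) and 1 to 2 lower; the cause was not tested. The replicate block left every count as it was: 6 higher and 5 lower with GNA in shNC, 7 and 5 in shNRF2, 4 and 12 between the lines in DMSO, 3 and 12 under GNA, and 1 and 2 in the difference. The counts of the roles and further lists under other scalings, and without shNC DMSO replicate 1, were alternatives chosen after seeing the data. All other member counts stayed within 1.5 times. Called in every alternative were 10 of 11 members with GNA in shNC, 10 of 12 in shNRF2, 12 of 16 between the lines in DMSO, 12 of 15 under GNA, and 1 of 3 (PLK2) in the difference. Depth limits TNFRSF10C, which had too few reads to be tested, and the genes near 10 CPM such as PLK3, CCNG2 and TP53INP1, whose intervals were among the widest.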
